A study of Homo sapiens with 15 samples.

Results

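Chromosomes 16, 19 and 22 of the human genome were examined as a set of 223100 genomic windows of 1 kb, out of 3373681 windows on chromosomes 1 to 22 and X. They were chosen from measured values, since the share of the reads falling on them differed between the lines and moved between untreated and treated libraries, so the line differences and shifts below are given as descriptions. Counts of bins and genes past a threshold for these differences come from fits across the genome, stand beside the share over all bins or genes, and are no separate evidence. The windows were counted by Pt-exo-seq, in which 5′ to 3′ exonuclease digestion of genomic DNA stops at platinum adducts and the ends that remain are sequenced. PEO1 and PEO4 are established high-grade serous ovarian cancer lines from the same patient, of which PEO1 is labelled clinically platinum sensitive and PEO4 resistant. The 5 groups were untreated PEO1, PEO1 with 16 µM cisplatin, untreated PEO4, PEO4 with 16 µM cisplatin and PEO4 with 32 µM cisplatin, with 3 libraries each. Cisplatin was given for 5 h, and the study paired 16 µM in PEO1 with 32 µM in PEO4 as doses giving a like total of adducts. Each line is a single established culture, so a difference between PEO1 and PEO4 is a difference between those lines and not between sensitive and resistant tumours.

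The label of GC-rich chromosomes held for 19 and 22 and less well for 16. In the 100 kb bins tested, GC content was 48.5% on chromosome 19 and 48.0% on chromosome 22, the highest of 23 chromosomes and the next highest, against 40.9% over all tested bins. Chromosome 16 had 44.8% and ranked 4, behind chromosome 17 with 45.5%.

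Cisplatin forms most of its intrastrand crosslinks between neighbouring guanines, so the density of GG on either strand bounds where such an adduct can form. The untreated libraries of an exonuclease assay hold reads without adducts, whose density follows the number of DNA copies, the share of the sequence that can be mapped and base composition. Chromosome 19 is the most gene-dense human chromosome and holds large zinc finger gene clusters, chromosome 16 carries the metallothionein cluster and many segmental duplications, and chromosome 22 is acrocentric, with no assembled short arm in the genome build used here.

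The sequences that follow show what the bins at the ends of the range of shift look like. For each chromosome, the central 200 bases were taken of the 1 kb window whose GC content was nearest to that of its bin, in the bin with the lowest shift and in the one with the highest. They are the forward strand of GRCh37, with every base that is part of a GG or CC dinucleotide in capitals. The stretch from the lowest bin of chromosome 19, at chr19:5800001-5900000, overlaps an untranslated exon of FUT6 and is not printed.
chr16:14888201-14888400, lowest bin, intergenic: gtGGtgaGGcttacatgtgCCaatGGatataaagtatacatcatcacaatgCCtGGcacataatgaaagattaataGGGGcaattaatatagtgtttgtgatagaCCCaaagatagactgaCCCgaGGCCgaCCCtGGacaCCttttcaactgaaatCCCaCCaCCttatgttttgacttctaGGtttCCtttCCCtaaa
chr16:62917601-62917800, highest bin, intergenic: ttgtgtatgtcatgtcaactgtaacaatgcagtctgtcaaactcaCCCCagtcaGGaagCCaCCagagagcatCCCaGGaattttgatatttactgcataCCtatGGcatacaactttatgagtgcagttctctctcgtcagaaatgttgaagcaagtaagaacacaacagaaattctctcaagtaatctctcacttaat
chr19:23170901-23171100, highest bin, intron of ZNF728: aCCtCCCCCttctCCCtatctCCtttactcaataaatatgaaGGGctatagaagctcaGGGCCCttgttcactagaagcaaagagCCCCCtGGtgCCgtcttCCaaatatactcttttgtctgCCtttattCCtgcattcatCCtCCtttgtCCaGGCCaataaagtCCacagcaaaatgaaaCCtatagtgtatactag
chr22:18735701-18735900, lowest bin, intron of the lncRNA FAM230E: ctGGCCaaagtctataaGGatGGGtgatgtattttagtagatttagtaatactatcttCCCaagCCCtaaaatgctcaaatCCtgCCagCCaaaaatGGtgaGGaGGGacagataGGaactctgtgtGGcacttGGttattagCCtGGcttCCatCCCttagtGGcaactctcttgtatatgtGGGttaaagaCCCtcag
chr22:16140101-16140300, highest bin, intergenic: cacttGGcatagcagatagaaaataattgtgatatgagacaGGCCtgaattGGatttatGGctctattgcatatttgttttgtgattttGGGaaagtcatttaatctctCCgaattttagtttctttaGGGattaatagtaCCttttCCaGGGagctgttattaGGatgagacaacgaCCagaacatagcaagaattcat

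On each chromosome the bin with the lowest shift was richer in GC than the bin with the highest. The GG and CC content of a single stretch did not always follow this. On chromosome 16 the lowest bin had 46.8% GC and a shift of -1.09, and the highest bin had 36.1% GC and a shift of 0.57. On chromosome 19 the lowest bin had 55.1% GC and a shift of -0.86, and the highest had 39.6% GC and 0.27. On chromosome 22 the values were 45.8% and -0.91 for the lowest bin, and 39.2% and 0.57 for the highest. GG and CC covered 19 of the 200 bases printed from the highest bin of chromosome 16, and 47 of 200 from its lowest bin. In the ZNF728 intron they covered 50 of 200, although that bin was poor in GC. The lowest bins of chromosomes 16 and 22 were thinly covered, with means of 62 and 86 reads per library, and the first of them holds NPIPA2 and NPIPA3, members of a family of near-identical copies to which short reads are hard to assign.

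Library totals ran from 27.7 to 56.6 M reads (M, 1000000). The 3 chromosomes together held 1679 of the 28190 tested 100 kb bins, 779 on chromosome 16, 551 on 19 and 349 on 22. The bin at the middle of the range had a mean of 1016 reads per library on chromosome 16, 1405 on 19 and 784 on 22. Counting error on a whole chromosome is therefore small beside the spread between replicates, which set the errors below. Nothing in the labels says that replicates came from separate cultures, so their spread may be technical.

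Chromosome 22 had the lowest constant line difference of all 23 chromosomes, and it came from 1 stretch of its long arm. In the shares of reads, untreated PEO1 had 0.858%, 1.00% and 0.987% of its reads on chromosome 22, and PEO1 with 16 µM had 1.19%, 0.933% and 0.945%. Untreated PEO4 had 0.791%, 0.743% and 0.806%, PEO4 with 16 µM had 0.619%, 0.782% and 0.768%, and PEO4 with 32 µM had 0.789%, 0.636% and 0.664%. All 9 PEO4 libraries were below all 6 PEO1 libraries. The line difference (PEO4 minus PEO1, log2 share of reads) was -0.28 ± 0.08 (SE, n = 3 libraries a group) without drug and -0.55 ± 0.15 between PEO4 with 32 µM and PEO1 with 16 µM. Their mean is called the constant line difference here, -0.42 ± 0.08, and the treated minus the untreated value is called the shift, -0.27 ± 0.17.

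Along 22q the constant line difference was a step. The least-squares split of the 100 kb bins, with a trend on GC content removed, fell at 41700001, and the values on both sides of it left 2.94% of the sum of squares. From there to the end of the chromosome, 9.6 Mb with 114 protein-coding genes, the constant line difference was -1.16 ± 0.10, a 2.23-fold lower share in PEO4. On the 253 tested bins before it the value was 0.02 ± 0.07. The shift was -0.24 ± 0.14 before and -0.31 ± 0.20 after the border. The run of adjacent 1 Mb bins more than 0.3 from the median of their chromosome covered 41000001 to 51000000 of chromosome 22, and there was no such run on chromosomes 16 and 19. The median over bins in place of the sum took the constant line difference of the whole chromosome from -0.42 to -0.08, since most bins lie before the step. Bins this low were not particular to chromosome 22. In the edgeR fit the lower quartile of the bins was -1.02 there and -1 on chromosome 20.

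The border of the 22q step lay at the same window in each pair of groups. Over the 1 kb windows in and around the bin in which the split fell, the most likely change in the PEO4 share of the reads was at the window centred on 41752400 in untreated libraries, at that window between PEO4 with 32 µM and PEO1 with 16 µM, and there again between both lines at 16 µM, which share their PEO1 libraries with the pair before. This window lies inside ZC3H7B (41697529 to 41756151), a zinc finger gene, with TEF, a transcription factor of the PAR bZIP family, starting 3′ of it at 41763337. In untreated libraries the log2 ratio of PEO4 to PEO1 was 0.31 over the windows before it and -0.99 over those after it.

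Read within each library, the step on 22q was present in PEO1 and not visible in PEO4. The level of a stretch is given here as the median over its 100 kb bins of reads per 1 kb window, scaled to the median library total, and compared over the 20 bins before and the 20 bins after the border. In untreated PEO1 the level went from 5.98 to 12.1, from 6.65 to 15.1 and from 6.74 to 14.9 in the 3 libraries. In PEO1 with 16 µM it went from 7.46 to 18.9, from 6.38 to 13.8 and from 6.25 to 14. In untreated PEO4 it went from 7.07 to 7.19, from 6.87 to 6.89 and from 7.41 to 7.51. On the log2 scale the step was 1.11 ± 0.09 (SD, n = 3) in untreated PEO1 and 1.21 ± 0.12 in PEO1 with 16 µM, against 0.02 ± 0.01 in untreated PEO4, -0.03 ± 0.12 in PEO4 with 16 µM and 0.00 ± 0.13 in PEO4 with 32 µM. The 6 PEO1 libraries lay between 1.01 and 1.35 and the 9 PEO4 libraries between -0.16 and 0.15, with no overlap. The level before the border was much alike in the lines, 6.46 ± 0.41 in untreated PEO1 and 7.12 ± 0.27 in untreated PEO4, and the line ratio on distal 22q thus went with a raised level in PEO1. GC content was 46.4% before and 50.8% after the border.

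**Figure D1:**
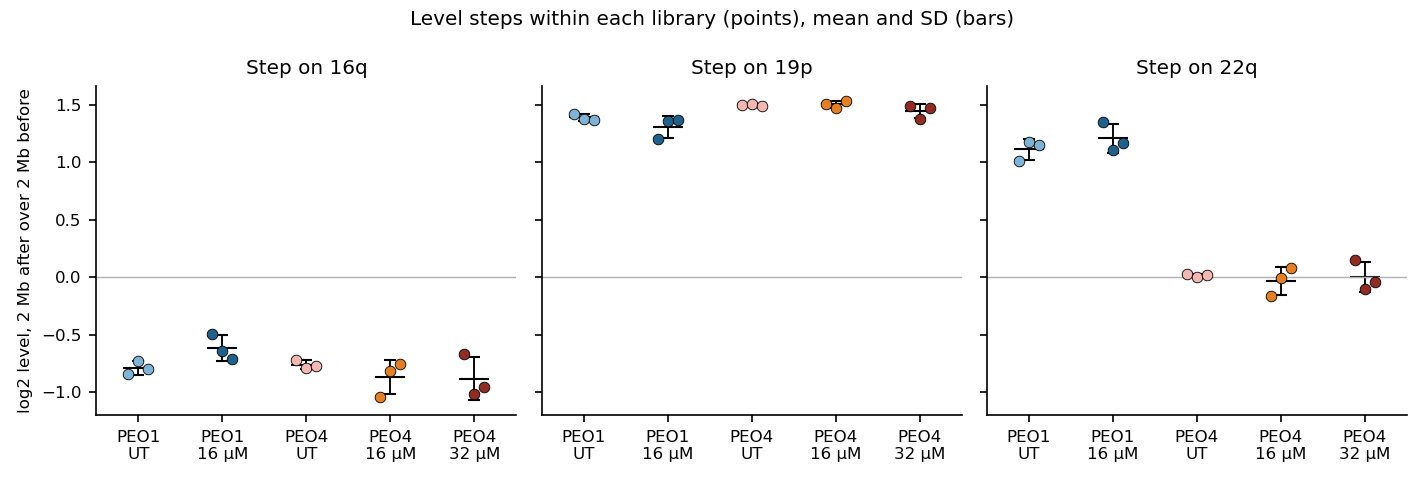
log2 ratio of the level over 2 Mb after a border to that over 2 Mb before it, for borders on 16q, 19p and 22q, in each library (points) with the group mean and SD (bars). On 16q and 19p all 15 libraries step the same way, and on 22q the 6 PEO1 libraries lie between 1.01 and 1.35 while the 9 PEO4 libraries lie around 0.

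Listed genes lie on both sides of the border. EP300, a histone acetyltransferase gene at chr22:41488596-41576081, is the listed gene nearest to the border on its centromeric side, and XRCC6, which encodes Ku70 of the end-joining complex, lies beyond it at chr22:42017167-42060052. Over XRCC6 with 25 kb on each side, scaled reads per window were 12, 14.3 and 14.7 in untreated PEO1 and 6.99, 5.99 and 6.85 in untreated PEO4. For EP300 they were 6.22, 7.23 and 6.56 in untreated PEO1 and 6.70, 7.03 and 7.36 in untreated PEO4. XRCC6 thus had about the reads of EP300 in PEO4 and clearly more in PEO1. Its constant line difference was -1.20 in the edgeR fit over genes, and that of EP300 was 0.02. CHEK2, a checkpoint kinase gene, NF2, CRKL and SMARCB1 all lie before the border, with constant line differences from -0.15 to 0.13. The 7 APOBEC3 genes, cytidine deaminases of 22q, also lie before it, with a median of 0.08.

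GSTT1 and its neighbour GSTT2 had few reads in both lines. GSTT1 encodes a glutathione transferase and lies at chr22:24376133-24384680, where whole-gene deletions are common in human genomes. Its scaled reads per window were 0.758, 1.54 and 1.37 in untreated PEO1 and 0.928, 0.639 and 0.944 in untreated PEO4. All were far below the level of the chromosome, and the lowest PEO1 library overlapped the PEO4 libraries. The constant line difference was -0.65. Its neighbour GSTT2, with 0.980 to 1.97 reads per window in untreated PEO1, has a near-identical copy beside it, so its counts are uncertain.

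Chromosome 16 had a constant line difference close to 0, made of stretches that differed. Untreated PEO1 had 2.11%, 2.28% and 2.24% of its reads there and untreated PEO4 2.40%, 2.31% and 2.43%, so that all 3 PEO4 libraries were above all 3 PEO1 libraries. With drug, PEO1 with 16 µM had 2.46%, 2.18% and 2.18%, PEO4 with 16 µM 2.12%, 2.39% and 2.36%, and PEO4 with 32 µM 2.40%, 2.09% and 2.16%, and these ranges overlapped. The constant line difference of the chromosome was 0.03 ± 0.05, with 0.01 ± 0.06 on 16p and 0.06 ± 0.03 on 16q. Splitting the GC-adjusted bins in 3 by least squares put borders at 33500001 and 56800001, and left 46.7% of the sum of squares. Between them, over 119 tested bins around the centromere and on proximal 16q, the constant line difference was 0.19 ± 0.02, a 1.14-fold higher share in PEO4. On the bins before it was 0.01 ± 0.06 and on those after -0.02 ± 0.04. In untreated libraries the middle stretch took 0.389%, 0.399% and 0.396% of the reads in PEO1 and 0.452%, 0.454% and 0.455% in PEO4. These do not overlap, but the borders were placed on values from the same libraries, so the separation is a description only. The 1 Mb bin with the highest constant line difference of the chromosome, 0.27 ± 0.06 at 50000001 to 51000000, lies in this stretch and holds CYLD, a deubiquitinase and tumour suppressor gene. CYLD itself had 10.1, 11.0 and 8.94 scaled reads per window in untreated PEO1 and 11.9, 12.7 and 13.3 in untreated PEO4. The lowest 1 Mb bin, -0.20 ± 0.03, was 77000001 to 78000000. Next to it lies WWOX, a tumour suppressor gene over a common fragile site, whose own constant line difference was -0.14. WWOX had 2.25, 2.05 and 2.23 scaled reads per window in untreated PEO1 and 2.17, 2.10 and 2.28 in untreated PEO4. The tested bins beyond 56800001 had median levels of 5.95 and 6 in these groups, so reads over WWOX were sparse in both lines.

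The second border on chromosome 16 was also a step in the level within every library, in both lines. One split of the level by least absolute deviations fell at 56800001 in each of the 5 groups. Over 20 bins on each side, untreated PEO1 went from 10.3 to 5.72, from 11.0 to 6.64 and from 10.7 to 6.14, and untreated PEO4 from 11.8 to 7.15, from 11.9 to 6.93 and from 12 to 7.02. All 15 libraries fell, by 0.49 to 1.04 on the log2 scale. The untreated lines did not separate, at -0.79 ± 0.06 in PEO1 and -0.76 ± 0.04 in PEO4. Beyond the border the level of the 329 tested bins was 5.95 in untreated PEO1 and 6 in untreated PEO4, against 11.2 and 10.7 over all tested bins. GC content was 43.9% on the 20 bins before and 47.8% on those after. The border follows the metallothionein cluster, with MT1X at chr16:56716382-56718108 and NUP93, a nuclear pore gene, beside it.

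On chromosome 19 the constant line difference was of 1 sign almost throughout. Untreated PEO1 had 1.77%, 2.06% and 2.03% of its reads on it and untreated PEO4 2.48%, 2.32% and 2.58%, with no overlap. With drug the groups did overlap, at 2.44%, 1.96% and 1.96% in PEO1 with 16 µM, 1.89%, 2.48% and 2.44% in PEO4 with 16 µM, and 2.53%, 1.99% and 2.08% in PEO4 with 32 µM. The line difference was 0.33 ± 0.08 without drug and 0.06 ± 0.15 in the treated pair, giving a constant part of 0.19 ± 0.09 and a shift of -0.28 ± 0.17. The treated value changed sign with the library left out, from -0.049 without PEO4 at 32 µM replicate 1 to 0.161 without PEO1 at 16 µM replicate 1. The arms were alike, with 0.20 ± 0.09 on 19p and 0.19 ± 0.08 on 19q. Over the 551 tested bins 0.544% had a constant line difference below 0, and their SD of 0.08 was the lowest of the 23 chromosomes. With the GC trend removed that SD was 0.10 and ranked 3.

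A single least-squares split of the GC-adjusted values fell at 6800001 of 19p, and the values on both sides of it left 62.3% of the sum of squares. The border was placed on these values, so their difference across it is a description only. Before it, over 66 bins with 54.9% GC and 208 protein-coding genes, the GC-adjusted constant line difference was -0.09 ± 0.016, and after it 0.10 ± 0.0072. Without the adjustment the values were 0.14 ± 0.15 and 0.20 ± 0.08 and did not separate. The level within libraries stepped there as well. Over 20 bins on each side, untreated PEO1 went from 4.94 to 13.2, from 6.14 to 16.0 and from 6.12 to 15.8, and untreated PEO4 from 7.27 to 20.5, from 6.61 to 18.8 and from 7.72 to 21.7. All 15 libraries rose, by 1.20 to 1.53 on the log2 scale, although GC content was close, 51.8% before and 50.5% after. VAV1, TRIP10 and C3, the gene of a central complement component, lie within 100 kb of this border. With 2 splits of the level, the second fell at 16100001 in all 5 groups, and the first at 6800001 in all but PEO1 with 16 µM, where it was at 7400001. The stretch between them had a level of 15.6 ± 1.53 in untreated PEO1 and 20.6 ± 1.5 in untreated PEO4, the stretch before them 5.43 ± 0.84 and 6.99 ± 0.64, and the stretch after them 10.4 ± 0.84 and 12.9 ± 0.59. MUC16, the gene of the CA125 antigen, KEAP1, SMARCA4 and NOTCH3 lie in this raised stretch. STK11, at chr19:1177557-1228430, lies before it.

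**Figure D2:**
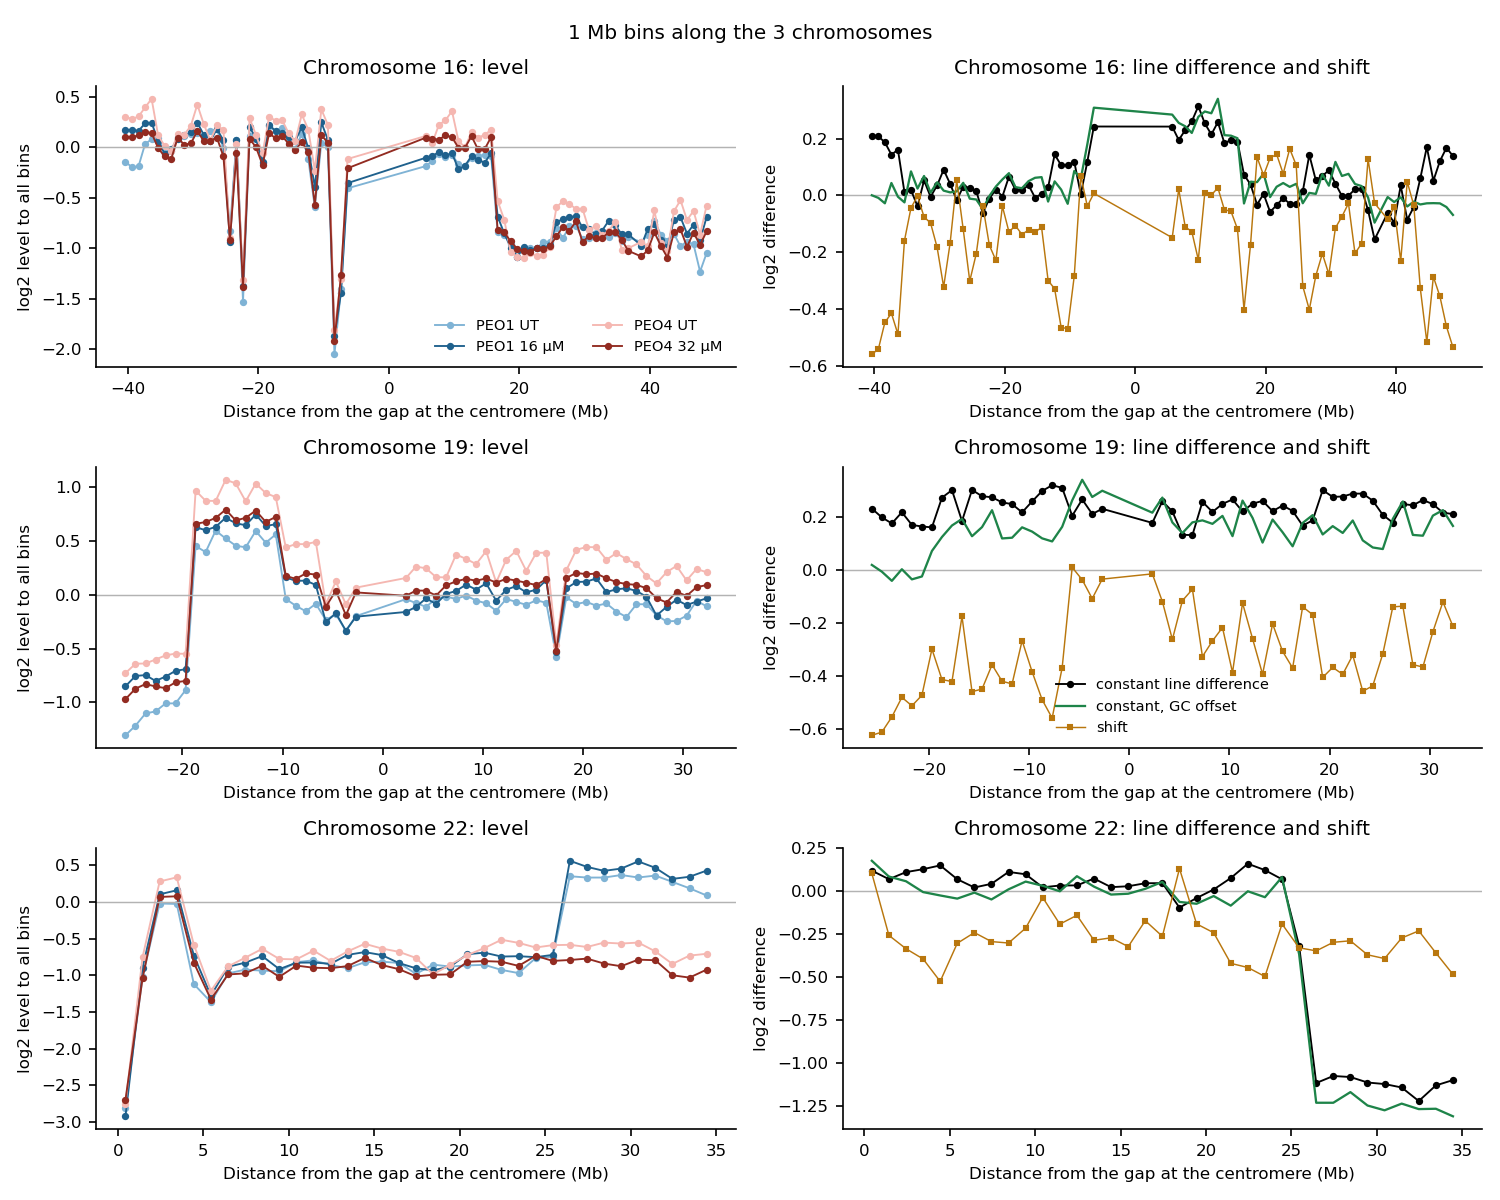
1 Mb bins along chromosomes 16, 19 and 22 against their distance in Mb from the assembly gap at the centromere, negative on the short arm. The left panels give the log2 level relative to all tested bins in 4 groups, and the right panels the constant line difference without and with the GC offset and the shift. The level falls on 16q and rises on 19p in all 4 groups, while on distal 22q it rises in PEO1 alone, where the constant line difference drops below -1.0 and the shift does not step.

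Counts of bins past the threshold describe the same line ratios on which the chromosomes were chosen. In the edgeR quasi-likelihood test with Benjamini-Hochberg adjustment over all bins, 376 of the 1679 bins were called for the untreated line difference, against 25.1% of all bins tested. On chromosome 19 all 205 called bins were higher in PEO4, on chromosome 16 63 were higher and 3 lower, and on chromosome 22 8 were higher and 97 lower. Between PEO4 with 32 µM and PEO1 with 16 µM 138 bins were called, against 23.4% of all bins, and 17 of those were on chromosome 19. For the constant line difference 284 were called, against 25.8% of all bins. With the GC offset 517 were called, against 30.2% of all bins. For the shift no bin was called by edgeR or DESeq2, here or in the genome (0% of all bins tested), while 211 of the 1679 had an unadjusted edgeR p under 0.05, or 12.6%, against 7.73% of all bins.

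The shift followed GC content over the whole genome, and the 3 chromosomes took their places on that trend. The shift of chromosome 16 was -0.14 ± 0.09, and that of 19 and 22 was as given above, so chromosomes 19 and 22 had the lowest and next lowest shift of the 23 chromosomes, and chromosome 16 ranked 4 behind 17. Over the 23 chromosomes, which share libraries and depth, the correlation of shift with GC content was -0.99. A line through the other 20 chromosomes gave -0.16 for chromosome 16, -0.30 for chromosome 19 and -0.28 for chromosome 22 at their GC contents. None of those 20 chromosomes reaches the GC content of 19 or 22, so the line was extended there, and the observed values lay within 2 residual SDs of it (SD 0.01). The constant line difference did not follow GC content over the 23 chromosomes, with a correlation of 0.00. Across the 100 kb bins of 1 chromosome the correlation was 0.40 on chromosome 16, 0.41 on chromosome 19 and -0.23 on chromosome 22. The last value also takes in the 22q step, since the bins beyond that border were richer in GC, at 50.5% against 47.0% before it.

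**Figure D3:**
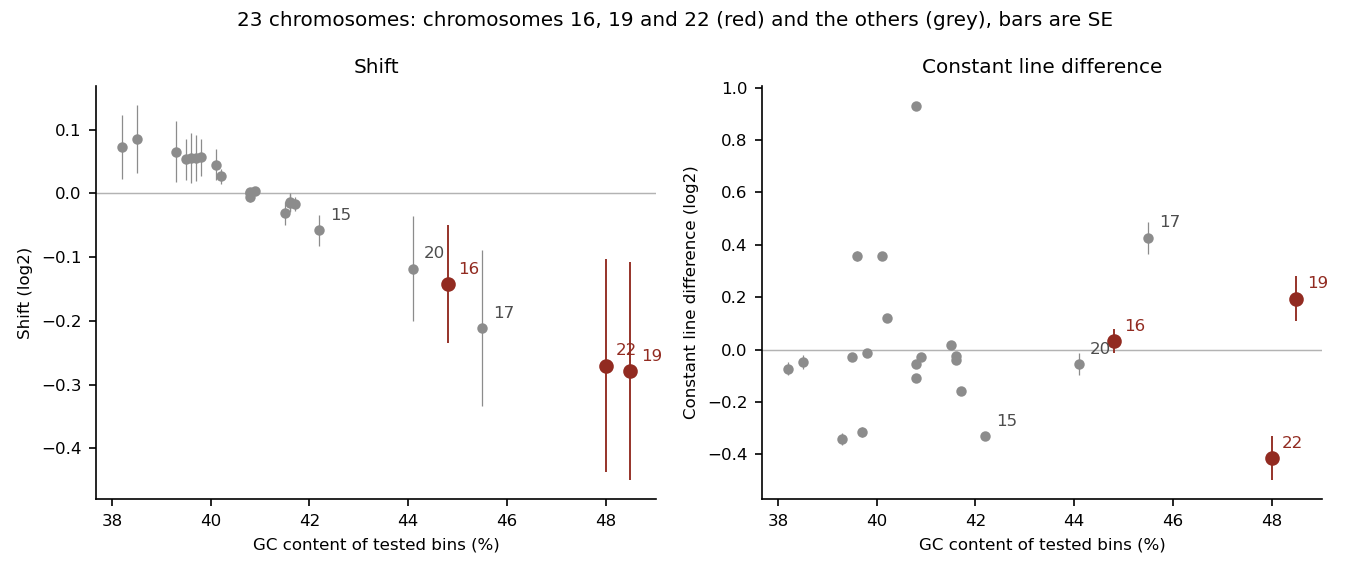
Shift (left) and constant line difference (right), both log2, against the GC content of the tested bins for 23 chromosomes, with chromosomes 16, 19 and 22 in red, the others in grey and bars of 1 SE. The shift declines with GC content to -0.28 on chromosome 19, and the constant line difference shows no such line, with 19 at 0.19 and 22 at -0.42.

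The same slope was present inside each chromosome. Across 100 kb bins the shift fell by 0.36 per 10 points of GC on chromosome 16, by 0.34 on chromosome 19 and by 0.34 on chromosome 22. Correlations with GC content were -0.78, -0.83 and -0.68 over 779, 551 and 349 bins that share libraries. On chromosomes 17, 20 and 15, the nearest in GC content outside the set, the slopes were -0.36, -0.35 and -0.34, so the slope was not particular to the 3. Zinc finger genes of chromosome 19 show the same within 1 family: the 167 with GC content under 45% had a median shift of 0.05, and the 82 richer ones -0.12, while their constant medians were 0.13 and 0.19.

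Removing the GC trend of each library left little of the shift, as such an offset takes out whatever runs with GC content. It then was -0.01 ± 0.0042 on chromosome 16, -0.02 ± 0.014 on chromosome 19 and -0.01 ± 0.0067 on chromosome 22. The constant line difference of chromosome 22 stayed, at -0.52 ± 0.0034, that of chromosome 19 was 0.09 ± 0.0071, and that of chromosome 16 was -0.01 ± 0.0021. On distal 22q it was -1.30 ± 0.0078 with the offset.

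Ratios between the 3 chromosomes separated the parts without any offset. Chromosomes 19 and 22 are close in GC content, and the log2 ratio of their shares (22 over 19) lay between -1.05 and -1.04 in untreated PEO1, between -1.07 and -1.04 in PEO1 with 16 µM, and between -1.68 and -1.61 in all PEO4 libraries. The line difference of this ratio was -0.61 in both untreated and treated libraries, and its shift was 0.01 ± 0.02. Chromosome 16 is poorer in GC, and the shift of the ratio of 16 over 19 was 0.14 ± 0.08. By replicate number it was 0.21, 0.06 and 0.14, and it was not tested.

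Single libraries ran along the same axis by as much as the groups did. By replicate number, the shift was -0.22, -0.08 and -0.13 on chromosome 16, -0.43, -0.14 and -0.26 on chromosome 19, and -0.47, -0.12 and -0.22 on chromosome 22. All 9 values were below 0, but the numbers only name libraries, and with PEO4 at 16 µM in place of 32 µM the values on chromosome 19 were -0.85, 0.18 and -0.03. Replicate 1 of PEO1 with 16 µM had the highest share of all PEO1 libraries on each of the 3 chromosomes, and replicate 1 of untreated PEO1 the lowest. Without that treated library the shift was -0.08 on chromosome 16, -0.17 on chromosome 19 and -0.16 on chromosome 22, and without PEO4 at 32 µM replicate 1 it was -0.20, -0.38 and -0.36. In PEO1 the order of the 6 libraries on chromosomes 19 and 22 was the same at all 6 ranks, and that on chromosome 16 matched either of them at 4. Among the 9 PEO4 libraries the order matched at 4 ranks between chromosomes 16 and 19, 7 between 16 and 22, and 6 between 19 and 22.

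**Figure D4:**
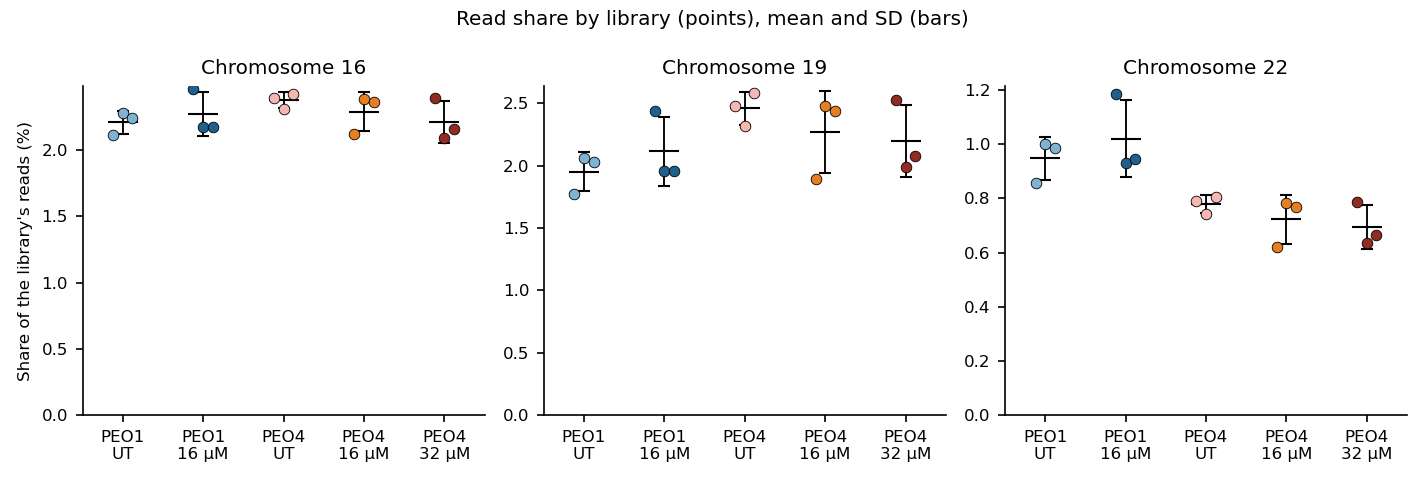
Share of each library's reads, in percent, on chromosomes 16, 19 and 22, for 15 libraries (points) in 5 groups with the mean and SD (bars). On chromosome 22 all PEO4 libraries lie below all PEO1 libraries, and on chromosomes 16 and 19 the treated groups overlap.

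The contrast between GC-rich and GC-poor bins of 1 chromosome gives this axis library by library. The third of the bins richest in GC had 51.0% on chromosome 16, 54.3% on 19 and 53.2% on 22, and the poorest bins, as many, 39.3%, 42.5% and 42.8%. On chromosome 19 the log2 ratio of rich to poor was -0.41, -0.05 and -0.07 in untreated PEO1 and 0.36, -0.15 and -0.08 in PEO1 with 16 µM. It was 0.17, 0.01 and 0.20 in untreated PEO4, -0.44, 0.12 and 0.11 in PEO4 with 16 µM, and 0.19, -0.21 and -0.12 in PEO4 with 32 µM. On this chromosome untreated PEO4 lay above untreated PEO1, and the treated groups overlapped each other. On chromosome 16 the contrast was 0.09 ± 0.21 (SD, n = 3) in untreated PEO1 and 0.40 ± 0.12 in untreated PEO4. On chromosome 22 it ran the other way, with 0.43 ± 0.19 in untreated PEO1 and 0.26 ± 0.09 in untreated PEO4. Bins beyond the 22q border had 50.5% GC against 47.0% before it, and levels of 13.7 in untreated PEO1 and 6.79 in untreated PEO4. The contrast on chromosome 22 therefore mixes GC content with the 22q step, and the parts were not separated. The shift of this contrast was -0.42 ± 0.26 on chromosome 16, -0.39 ± 0.24 on chromosome 19 and -0.33 ± 0.21 on chromosome 22, each under 2 SEs.

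The drug dose in PEO4 was not itself a comparison on which the chromosomes were chosen, and no difference was detected. It is not free of that choice, since the PEO4 libraries with 32 µM also enter the shift. PEO4 with 32 µM minus PEO4 with 16 µM was -0.05 ± 0.08 on chromosome 16 (exact two-sided permutation p = 0.7), -0.04 ± 0.17 on chromosome 19 (exact p = 1) and -0.05 ± 0.14 on chromosome 22 (exact p = 1), all with an adjusted p of 1 over 23 chromosomes. The smallest p that 3 against 3 libraries allow is 0.1, so this test could not have passed 0.05. Like the shift, the dose difference ran with GC content, with a correlation of -0.92 over the 23 chromosomes, which share libraries. Both values use the PEO4 libraries with 32 µM, so the likeness is not separate evidence. From the lowest, chromosomes 22, 16 and 19 ranked 1, 2 and 4. Across the 100 kb bins within chromosomes 16, 19 and 22 the correlations were -0.01, 0.10 and 0.07. By bins, no member bin was called by edgeR or DESeq2, as in the genome (0% of all bins tested), and 36 of 1679 had an unadjusted edgeR p under 0.05, which is 2.14% against 2.94% of all bins. For the steps in level the exact permutation p between the doses was 1 on 16q, 0.3 on 19p and 0.8 on 22q, under the same limit.

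Of the 2768 protein-coding genes tested on the 3 chromosomes, counted with 25 kb on each side so that neighbours share reads, 594 were called for the untreated line difference, against 28.1% of all genes. For the constant line difference 403 were called, against 27% of all genes. For the dose no gene was called by edgeR (0% of all genes tested), with 36 of the 2768 at an unadjusted p under 0.05, which is 1.30% against 1.52% of all genes.

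The 14 DNA repair genes had a median line difference of 0.23 without drug, and 2 were called higher and 1 lower in PEO4, where 28.1% of all genes were called. The line ratio was used to choose the chromosomes, so nothing is read from this count or from those of the lists that follow. ERCC2, a helicase of nucleotide excision repair that removes platinum adducts, had 7.88, 10.1 and 9.90 scaled reads per window in untreated PEO1 and 13.0, 11.8 and 18.1 in untreated PEO4. SLX4, a nuclease scaffold of crosslink repair on 16p, had 11.1, 12.3 and 10.4 against 15.4, 15.2 and 16.9. For both genes the untreated groups did not overlap. XRCC6 was lower in PEO4, as given above. ERCC1, the partner of the ERCC4 nuclease, was at 0.26 without drug and 0.03 in the treated pair. ERCC4 itself, in GC-poor sequence of 40.7% on 16p, was -0.17 and -0.03. All 7 repair genes of chromosome 19 had a shift below 0, from -0.45 to -0.06, where the median over all 1479 tested genes of that chromosome was -0.24.

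The 10 genes of platinum handling had a median constant line difference of 0.09, against -0.01 over all genes, and 3 were called for it, where 27% of all genes were called. ABCC1, a drug efflux pump gene of 16p, had a constant line difference of -0.02. The metallothioneins, small proteins that bind metals, lie so close together that the counted stretches overlap, and their values from 0.06 to 0.27 are not independent of each other. MT2A had 9.93, 10.9 and 12.1 scaled reads per window in untreated PEO1 and 12.9, 14.5 and 13.7 in untreated PEO4. The median over the 11 tested MT genes was 0.13.

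The 17 cancer genes had a median line difference of 0.25 without drug, and 3 were called, all higher in PEO4, against 28.1% of all genes. SMARCA4, a chromatin remodelling ATPase, was at 0.40 without drug and 0.00 in the treated pair. TSC2, a tumour suppressor in GC-rich sequence of 62.0% on 16p, went from 0.48 without drug to -0.05 in the treated pair, and CYLD, in sequence of 41.2%, was 0.25 in both. CCNE1, the cyclin E1 gene of 19q that is amplified in some ovarian cancers, had 8.35, 11.3 and 10.5 scaled reads per window in untreated PEO1 and 13.9, 12.1 and 13.5 in untreated PEO4. Its line difference without drug was 0.30 and its level was near that of the chromosome in both lines. AKT2 on 19q had 0.35.

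**Figure D5:**
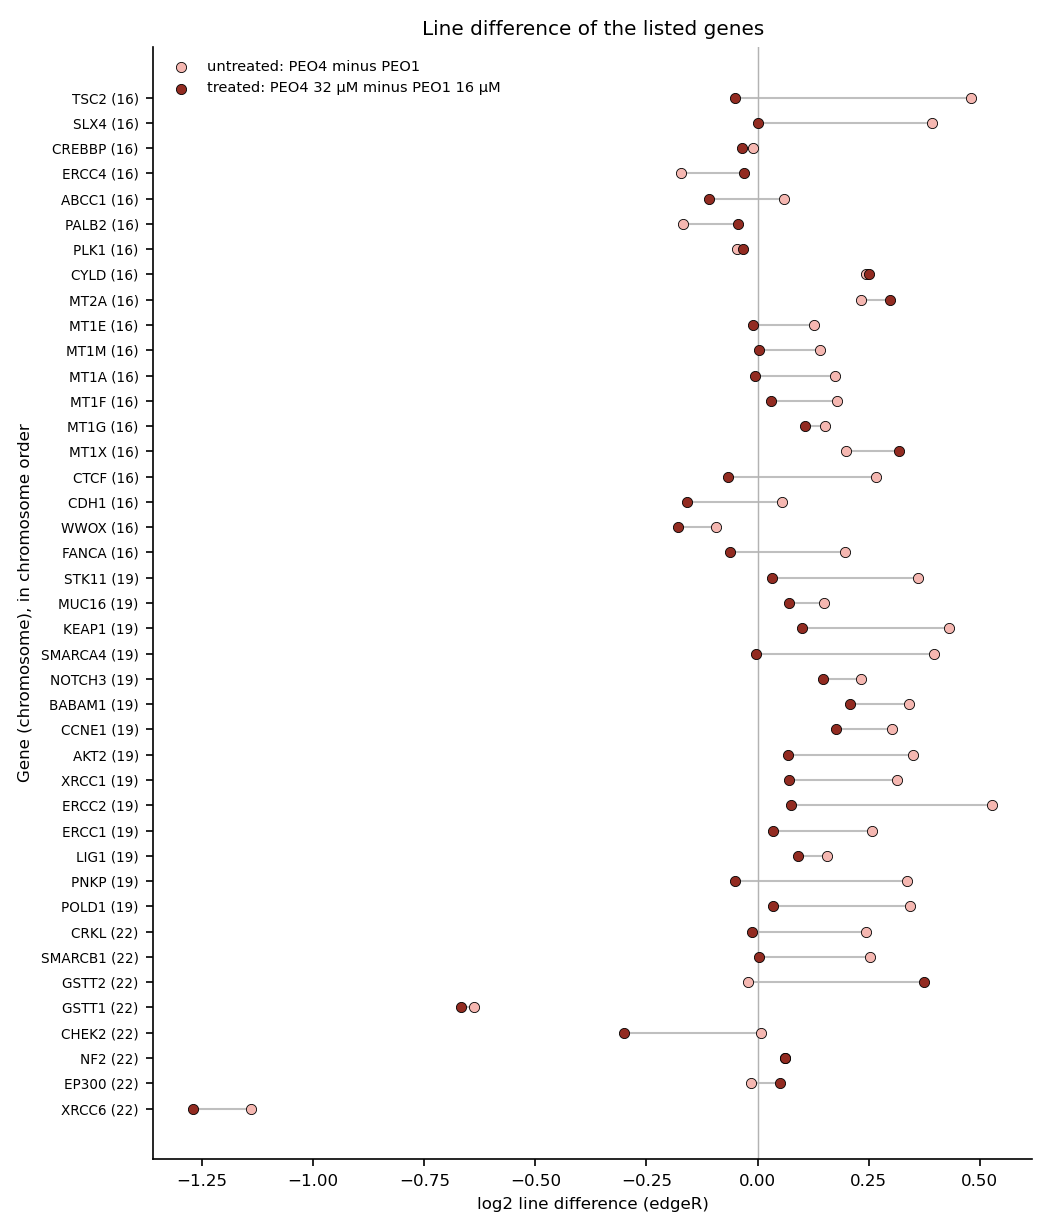
log2 line difference (PEO4 minus PEO1, edgeR) of the 41 listed genes in chromosome order, without drug (light) and between PEO4 with 32 µM and PEO1 with 16 µM (dark), joined by a line whose length is the shift. On chromosome 19 every gene moves towards 0 or below with drug, CYLD stays at 0.25, and XRCC6 lies below -1.1 in both.

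Of the gene families, the 249 ZNF genes of chromosome 19 had a median constant line difference of 0.14. Without drug 23 of them were called, all higher in PEO4, where 404 of the 1479 genes of the chromosome and 28.1% of all genes were called. Their median shift was 0.01, where the median GC content was 43.7% against 52.2% for all genes of the chromosome. The 15 KLK genes, serine proteases of 19q, had medians of 0.07 (constant) and -0.09 (shift). The 10 PSG genes, 17 LILR and KIR genes and 3 globin genes of the HBA and HBZ group, all families of near copies, had constant medians of -0.01, 0.10 and 0.10. The median shift of the globin genes was -0.41, at a median GC content of 55.6%, and that of the APOBEC3 genes -0.38 at 51.4%.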

How the data were processed

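Pt-exo-seq reads of 15 libraries were trimmed with BBDuk, aligned to hg19 with Bowtie2, filtered against blacklisted regions and deduplicated with Picard by the authors; versions are not given in the sources used here. The deposited values are raw read counts in 1 kb windows stepped by 900 bp, so neighbouring windows overlap. All 23 chromosome lengths matched GRCh37, which gave GC content, sequences and genes (GENCODE release lifted to this build).

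Counts were summed by window midpoint into 100 kb and 1 Mb bins, and into protein-coding genes with 25 kb on each side. Bins with a mean count of at least 50 were tested across the genome with the edgeR 4.0.16 quasi-likelihood test (5 groups, TMM factors, R 4.3.3), with Benjamini-Hochberg adjustment and a limit of 0.05. Shares of reads are relative to chromosomes 1 to 22 and X. The GC offset is the trend of each library over bins ordered by GC content. Dose differences of single values were tested with an exact permutation test. SEs combine the group SDs.

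Arms, extreme 1 Mb bins (at least 5 tested bins), runs of at least 3 of them and the gene lists were named by rule; some listed genes are not reported here. The borders on 16q, 19p and 22q, the levels within libraries and the split of ZNF genes by GC content were added after values were seen. The members and lists were chosen with earlier results of these data known. Alternatives were DESeq2 1.42.0, other scalings and filters, a GC offset, a replicate block and leaving out each library.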

Additional observations from a re-analysis of the deposited data

Results flagged for a closer look

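In 7 of the regions and listed genes, all 3 treated libraries of PEO1 lay on one side of the untreated PEO1 mean, taken over log2 values, and all 3 treated libraries of PEO4 on the opposite side of the untreated PEO4 mean. The difference between the responses (PEO4 minus PEO1, log2 scaled reads) was not tested in any of them, and 63 regions and genes were looked at with both PEO4 doses. With PEO4 at 32 µM it was -0.53 for SLX4, -0.53 for SMARCA4, -0.44 for SMARCB1 and -0.13 for CYLD. These values are scaled to library totals; the edgeR fit with TMM factors gave CYLD a shift of 0.01 for the same groups. With PEO4 at 16 µM it was -0.53 for SLX4, -0.88 for TSC2, 0.60 for GSTT2, whose counts are uncertain, and -0.54 for the 1 Mb bin at 18000001 to 19000000 of chromosome 19. For TSC2, at 62.0% GC the richest of the listed genes, PEO1 went up by 0.44 and PEO4 fell by 0.43. Its scaled reads per window were 7.22, 9.42 and 9.95 in untreated PEO1 and 16.8, 10.1 and 10 with 16 µM. In PEO4 they were 13.8, 11.6 and 14.1 untreated and 7.38, 11.2 and 11.2 with 16 µM. Replicate 1 was the most extreme library in both treated groups.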

How the results depend on the processing

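Over 24 settings the counts of called bins ran as follows. For the untreated line difference, 376 bins were called, 49 with 1 Mb bins, and 159 to 529 when 1 library was left out, with 159 without untreated PEO1 replicate 1, 196 without untreated PEO4 replicate 1 and 160 without untreated PEO4 replicate 3. For the constant line difference, 284 bins were called, 48 with 1 Mb bins, 517 with the GC offset, 516 with the GC offset and the replicate block, and 197 to 521 with 1 library left out, the highest without PEO1 with 16 µM replicate 1. The count for the shift and the count for the dose were 0 in all of these settings. Of genes, 594 were called for the untreated line difference, 285 over the gene body only and 348 with a GC offset, which was added after the data were seen. The constant line difference of chromosome 22 was -0.42 and -0.084 as a median over bins. The dose difference of chromosome 19 changed sign with the GC offset (0.00) and ran from -0.170 to 0.027 with 1 library left out, and that of chromosome 22 ran from -0.160 to 0.009; neither was past a threshold in any setting. The shift kept its sign on all 3 chromosomes in every setting, but its size did not hold. With the GC offset it was -0.006 on chromosome 16, -0.022 on chromosome 19 and -0.011 on chromosome 22. Leaving out PEO1 with 16 µM replicate 1 moved it by over 1.5 times on each. The within-chromosome GC contrast shift was -0.38, and -0.50 to -0.23 with 1 library left out.

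Replicate numbers name libraries only: of 30 pairs of same-numbered libraries 11 deviated together from their group means with a correlation over 0.1, and 5 of 15 libraries correlated best with their own number. With the replicate block 279 bins were called for the untreated and 234 for the constant line difference, 0 for shift and dose, and 401 genes; the chromosome values were the same by construction. Depth limits single bins: the middle tested bin of the genome had 1319 reads per library, and 3 libraries a group give no exact permutation p below 0.1.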
